A study of Mus musculus with 18 samples.

Results

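The transcripts of 9 bone morphogenetic protein (BMP) and growth differentiation factor (GDF) ligands were followed in mouse knee cartilage after rupture of the anterior cruciate ligament (ACL). The genes, Gdf5, Gdf6, Gdf10, Bmp2, Bmp3, Bmp4, Bmp5, Bmp6 and Bmp7, were listed by name, and all 9 were found among the 49184 genes with a transcript in the data. At day 7 after injury the level of 1 ligand transcript, Gdf5, was about 14-fold above that of naive cartilage, while the fitted differences of the other 8 were under 1.5-fold.

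BMPs and GDFs are secreted dimeric ligands of the TGF-β superfamily. They bind pairs of type I and type II serine/threonine kinase receptors. For many of the ligands, though not all, these receptors phosphorylate SMAD1, SMAD5 and SMAD9. Secreted antagonists such as noggin and chordin hold ligands away from the receptors. In the skeleton BMPs and GDFs drive cartilage and bone formation. GDF5 is a classical marker of the embryonic joint interzone, the strip of cells from which articular cartilage and other joint tissues form.

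Total RNA, depleted of ribosomal RNA, was sequenced from femoral condyle cartilage of C57Bl/6J male mice aged 12 weeks, in 18 libraries. The right knee of injured mice received a single load of 12 N under isoflurane anaesthesia with buprenorphine, which ruptured the ACL, and the untouched left knee served for comparison. There were 6 libraries of naive cartilage, taken with the day 7 samples, and 3 libraries each of day 1 contralateral, day 1 injured, day 7 contralateral and day 7 injured cartilage. All groups were wild type, with no transgene or deletion.

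Each library was a pool. The study's methods give 2 mice per day 1 library and 4 mice per day 7 library, the latter because part of the cartilage was lost by day 7. For naive cartilage they give 2 knees per library from 6 mice, with left and right knees pooled apart. By these numbers naive libraries share mice, so the 6 libraries are not independent sets of mice. The series' design text instead gives 4 mice per library. Both knees of the injured mice were used, and the study's own model allowed for samples from the same pool of mice. The labels do not say which pools share mice, so the tests here treat the knees as independent, and p-values measure the spread between pools. Library totals ran from 16074762 to 41794005 estimated counts with a median of 25465706. Day 7 contralateral replicate 1 stood apart from the rest, with 42.5% of its counts in its 10 most abundant genes, against 16.6% to 29.8% in the other 17 libraries. The ligands' fold changes that rest on the day 7 contralateral group were therefore also fitted without it.

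The chondrocyte label was checked against marker genes. Col2a1, the main collagen of cartilage, stood at 3237 ± 886 CPM (SD, n = 6) in naive libraries, where CPM are counts scaled to the size of the library, and all 12 chondrocyte markers were measured. RNA of other tissues was abundant as well: Hbb-bs, an adult β-globin of red cells, stood at 14120 ± 1223 CPM, Ngp, a neutrophil granule gene, at 2499 ± 349 CPM and Myh4, a fast-muscle myosin, at 2082 ± 954 CPM (SD, n = 6 each). In such bulk samples, fewer cells of a type and less RNA per cell cannot be told apart.

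Among these ligands, Gdf5 and Gdf6 are close relatives, which form a subfamily with Gdf7. Because short reads can be shared between near-identical genes, the last 90 coding bases of the 3 genes, stop codon included, are shown; capitals mark bases that differ from Gdf5. They lie in exon 2 of each gene on mouse build GRCm38, at chr2:155941543-155941632 on the minus strand for Gdf5, chr4:9860195-9860284 on the plus strand for Gdf6 and chr12:8297934-8298023 on the minus strand for Gdf7.
Gdf5: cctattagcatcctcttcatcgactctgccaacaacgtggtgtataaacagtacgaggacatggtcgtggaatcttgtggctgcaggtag
Gdf6: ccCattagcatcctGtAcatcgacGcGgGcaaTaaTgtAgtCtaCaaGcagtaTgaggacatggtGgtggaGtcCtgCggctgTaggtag
Gdf7: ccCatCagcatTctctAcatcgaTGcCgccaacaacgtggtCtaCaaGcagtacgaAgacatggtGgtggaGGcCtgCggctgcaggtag
Gdf6 matched Gdf5 at 72 of these 90 bases and Gdf7 at 74, with longest unbroken matches of 11 and 14 bases. Over the whole transcripts, none of the 2290 distinct 31-base words of Gdf5 occurred in Gdf6 or Gdf7, so no stretch of that length is common to Gdf5 and either relative.

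Gdf5 (ENSMUSG00000038259, chr2:155941023-155945367, minus strand) does share sequence with a gene on the opposite strand. Of its 31-base words, 910 (39.7%) also occur in the overlapping gene Gm15557, which received at most 3.45 counts in any library. Bmp5 (chr9:75775364-75900310, plus strand) shares 46.2% of its words, all of them with the antisense gene Gm26903, whose counts reached 51.6. Bmp6 (chr13:38345107-38500302, plus strand) shares 5.2%, mostly with the end of the abundant opposite-strand gene Txndc5, and the 6 other ligands shared at most 3.55%. The libraries were stranded, but whether strand was used in counting is not given in the sources used here, so reads of these overlapping pairs may not be told apart.

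The other ligands lie at chr4:9844372-9862345 (Gdf6, plus strand), chr14:33923587-33937983 (Gdf10, plus), chr2:133552159-133562885 (Bmp2, plus), chr5:98854415-98884396 (Bmp3, plus), chr14:46383520-46390669 (Bmp4, minus) and chr2:172868012-172940321 (Bmp7, minus).

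Levels of the ligands were compared with one another only in TPM, a transcript abundance scaled for length and for library size. In naive cartilage the order of mean TPM was Bmp3 at 2.80 ± 0.383, Bmp6 at 2.25 ± 0.194, Gdf10 at 2.07 ± 0.523, Bmp4 at 1.75 ± 0.403, Bmp5 at 1.52 ± 0.168, Bmp2 at 1.48 ± 0.286, Bmp7 at 0.576 ± 0.154, Gdf6 at 0.116 ± 0.048 and Gdf5 at 0.0978 ± 0.0423 (SD, n = 6). Only the steps from Bmp2 to Bmp7 and from Bmp7 to Gdf6 separated all 6 libraries of both neighbours; every other neighbouring pair overlapped. Among the 21262 genes that passed the count filter, Bmp3 lay above 53.3% and Gdf5 above 5.53%. The place of Bmp4 rests in part on 2 short transcripts with a retained intron: counting coding transcripts alone, a choice made after seeing the data, its mean naive level was 1.05 ± 0.22 TPM (SD, n = 6), below the means of Bmp5 and Bmp2 and with a lowest library of 0.781 TPM that overlapped Bmp7. The ligand with the largest difference after injury was thus among the least abundant transcripts in uninjured cartilage.

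Gdf5 was high in all 3 day 7 injured libraries and in no other. Its CPM there were 6.67, 3.92 and 6.79, from 147, 62 and 147 counts, a mean of 5.80 ± 1.62 (SD, n = 3). Naive libraries ran from 0.119 through a median of 0.457 to 0.560 CPM. Day 7 contralateral libraries held 0.467, 0.267 and 0.473 CPM. The 3 day 1 contralateral libraries held 0.179, 0.331 and 0.233 CPM and the 3 day 1 injured libraries 0.355, 0.540 and 0.911 CPM. Across the 15 libraries outside day 7 injury, Gdf5 therefore rested on 3 to 22 counts, and the lowest day 7 injured library was above the highest of them.

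**Figure D1:**
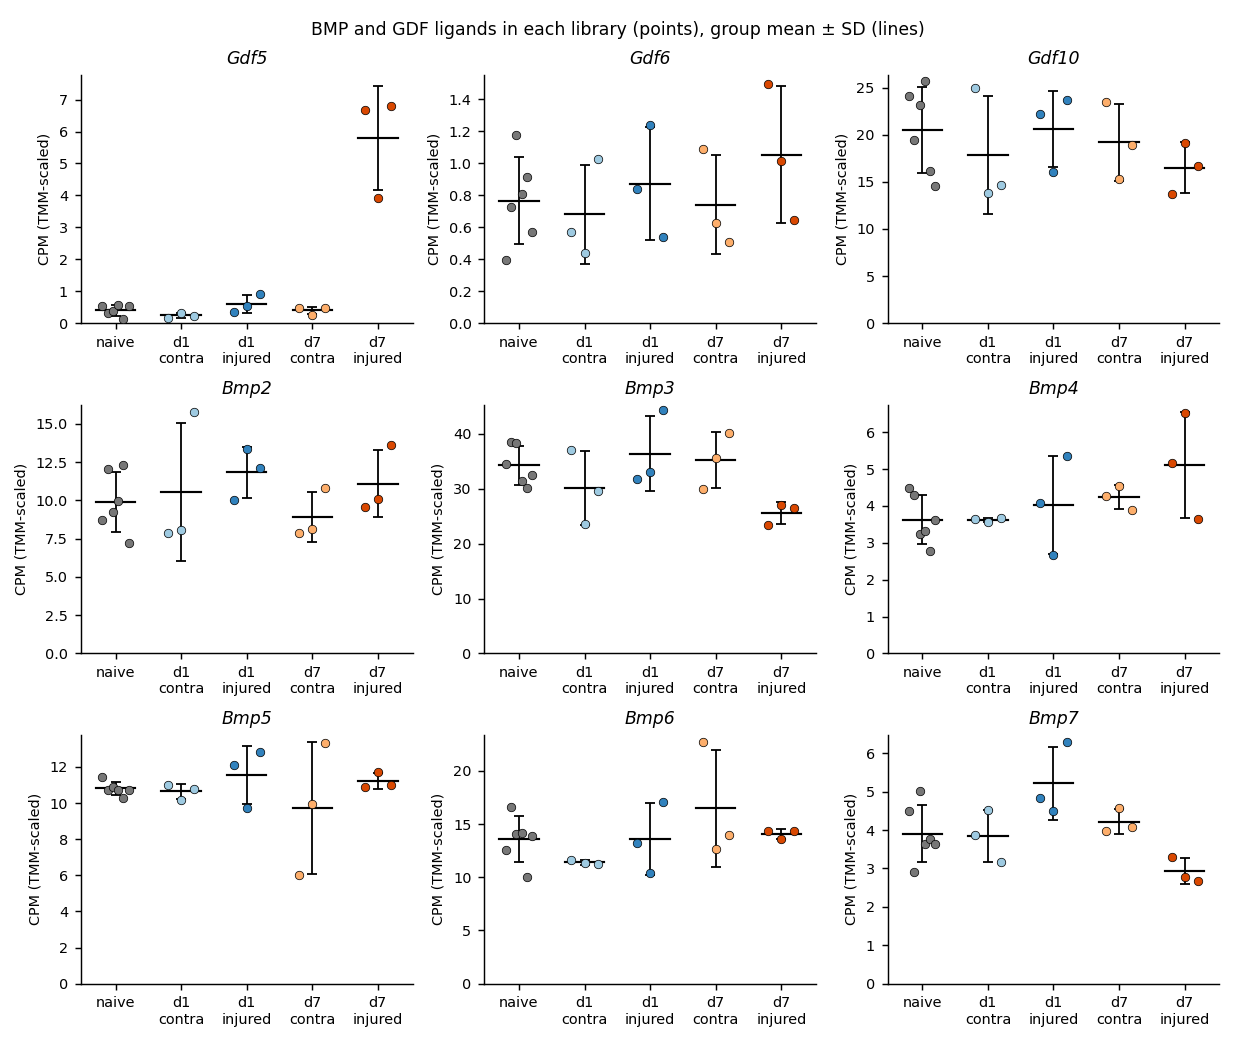
Level of each ligand in CPM (y axis, linear and starting at 0) in the 18 libraries by group (x axis); points are libraries, wide lines are group means and error bars are SD (n = 6 for naive, n = 3 for the others; contra means contralateral, d1 and d7 mean day 1 and day 7). Gdf5 at day 7 after injury sits between 3.92 and 6.79 CPM, above all 15 other libraries, whereas the groups of most other ligands overlap.

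Against naive cartilage, Gdf5 was higher at day 7 after injury by 3.81 on the log2 scale (SE 0.321, edgeR quasi-likelihood test, adjusted p = 5.16e-07), a fitted 14.1-fold difference with a 95% interval from 3.13 to 4.50 in log2. It was the only 1 of the 9 ligands called higher, where a call means an adjusted p of at most 0.05 over all genes tested and a difference of at least 1.5-fold; 10.4% of the 21129 genes tested were called higher and 6.11% lower, and no ligand was called lower. Gdf5 was also the only ligand above all 15 other libraries, as were 11.9% of genes, while 3.22% of genes and no ligand lay below all 15.

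Against the contralateral knees of day 7, Gdf5 was higher by 3.85 (SE 0.424, edgeR adjusted p = 5.62e-06), again as the only called ligand, beside 9.33% of genes called higher and 3.23% lower. Without the outlying contralateral replicate 1 the difference was 3.95 (edgeR adjusted p = 3.36e-05), and leaving out each library in turn kept it between 3.60 and 4.07. Against day 1 injured cartilage it was higher by 3.31 (SE 0.389, edgeR adjusted p = 3.03e-05), beside 9.04% of genes called higher and 6.38% called lower. All 3 comparisons rest on the same 3 day 7 injured libraries and differ in the group set against them. The contralateral comparison came from the fit of 18 libraries and the others from the fit of 15.

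Bmp3, whose protein lacks the bone-forming activity of its relatives and can oppose it, had its lowest group mean in day 7 injured cartilage. The injured libraries held 23.4, 27.1 and 26.5 CPM, and naive libraries ran from 30.1 through 33.5 to 38.5 CPM. Day 7 contralateral libraries held 29.9, 35.6 and 40.1 CPM, and day 1 injured libraries 31.8, 33.1 and 44.3 CPM. Every day 7 injured library was below every library of those 3 groups, but 1 of the day 1 contralateral libraries, at 23.6 CPM, fell among them. The difference from naive was -0.40 in log2 (SE 0.139, edgeR adjusted p = 0.0418), smaller than the 1.5-fold limit and so not called. Against the contralateral knees it was -0.46 (SE 0.164, edgeR adjusted p = 0.0615), and without contralateral replicate 1 it was -0.54 (edgeR adjusted p = 0.0373), under the fold limit in both. Of its 3 transcripts, 1 held 90.7% of the Bmp3 counts.

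Bmp7, a ligand of the group with Bmp5 and Bmp6, had its highest mean at day 1 after injury and its lowest at day 7. Day 1 injured libraries held 4.84, 4.51 and 6.29 CPM and day 7 injured libraries 3.31, 2.79 and 2.68 CPM, with no overlap. The difference between these injured groups was -0.81 in log2 (SE 0.204, edgeR adjusted p = 0.0102), the only ligand called lower by edgeR in the comparisons made. Naive libraries ran from 2.91 through 3.71 to 5.01 CPM and overlapped both injured groups, and the day 7 injured group differed from them by -0.40 (SE 0.182, edgeR adjusted p = 0.109), which was not called. Against contralateral libraries of day 7, at 3.97, 4.59 and 4.09 CPM, the difference was -0.53 (SE 0.204, edgeR adjusted p = 0.0842), and -0.54 (edgeR adjusted p = 0.108) without contralateral replicate 1.

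Bmp3 and Bmp7 were thus the ligands below all libraries of the group compared. Bmp3 was below all naive libraries, as were 10.8% of genes, and 17.4% of genes, Gdf5 with them, were above. Both were below all day 7 contralateral libraries, as were 14.3% of genes with 18.6% above, and below all day 1 injured libraries, as were 17.5% of genes with 22.8% above. Such separation was common over all genes.

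Bmp4, which with Bmp2 forms a closely related pair of bone-inducing ligands, had a higher mean but a wide spread at day 7 after injury. The injured libraries held 5.17, 6.52 and 3.65 CPM, against 2.78 through 3.48 to 4.49 CPM in naive libraries, and the groups overlapped. The difference was 0.51 in log2 (SE 0.214, edgeR adjusted p = 0.0832) and was called only without day 7 injured replicate 3, at 0.71 (edgeR adjusted p = 0.0379). The counts of Bmp4 were divided mainly between 2 of its 4 transcripts, with shares of 52.6% and 41.7% over all libraries and of 41.9% and 53.3% in day 7 injured libraries. Without contralateral replicate 1 the difference from the contralateral knees was 0.30 (edgeR adjusted p = 0.519). Allowing for the length of the transcripts used turned the difference from the contralateral knees from 0.27 to -0.06, neither of them called. Bmp2 held 9.57, 10.1 and 13.6 CPM at day 7 after injury and 7.23 to 12.3 CPM in naive libraries, a difference of 0.18 (95% interval from -0.30 to 0.66).

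The remaining ligands overlapped between injured and naive cartilage. Gdf6 rested on 8 to 44 counts per library; its difference of 0.46 at day 7 had a 95% interval from -0.35 to 1.27 in log2, which holds both no change and changes past 1.5-fold (0.585 in log2). Gdf10, a relative of Bmp3, differed by -0.30 (95% interval from -0.76 to 0.17). For Bmp5 and Bmp6 the intervals were narrow, from -0.12 to 0.26 and from -0.24 to 0.39, and lay inside 1.5-fold. The outlying day 7 contralateral replicate 1 held the highest Bmp6 level of all libraries, 22.7 CPM, and the lowest Bmp5 level, 5.995 CPM. Without it the differences of Bmp5 and Bmp6 from the contralateral group changed sign, from 0.18 to -0.03 and from -0.21 to 0.10, none of them called.

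**Figure D2:**
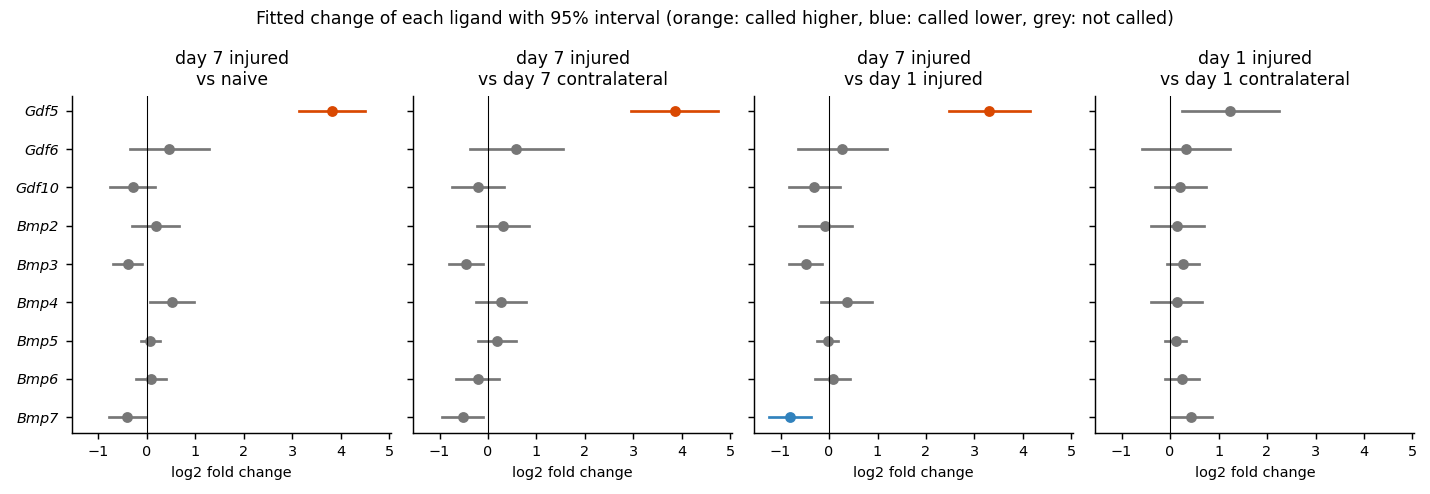
Fitted log2 fold change (x axis) of each ligand (y axis) in 4 comparisons, with points for the edgeR estimate and lines for its 95% interval; orange marks ligands called higher, blue called lower and grey not called. Gdf5 stands at 3.81, 3.85 and 3.31 in the 3 comparisons of day 7 injured cartilage, and Bmp7 at -0.81 is the only ligand called lower.

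At day 1 no ligand was called, nor was any gene by edgeR: the share called was 0% between day 1 injured and naive, day 1 injured and day 1 contralateral, and day 1 contralateral and naive libraries. Of the 21129 genes tested by edgeR, 959, 1383 and 554 had an unadjusted p under 0.05, and DESeq2 called 15, 0 and 2 genes. Between injured and contralateral knees of day 1, all 9 ligands had a positive difference, from 0.12 for Bmp5 to 1.24 for Gdf5, and the median of the 9 was 0.245 beside -0.00152 over all genes. In the same comparison 12 of 12 chondrocyte markers (median 0.281), 7 of 7 receptors, 9 of 9 skeletal muscle and 7 of 7 adipocyte markers were also above 0, while 0 of 7 erythroid markers were, and none of these genes was called, and their part in the ligand values was not tested. The day 1 contralateral libraries in turn were below naive for 7 of the 9 ligands, with a median of -0.143 and -0.74 for Gdf5 (edgeR adjusted p = 1.00). The Gdf5 difference (SE 0.472, unadjusted p = 0.0188, edgeR adjusted p = 0.755) rested on 11, 17 and 22 counts against 5, 9 and 10. Bmp7 differed by 0.43 (SE 0.197, edgeR adjusted p = 0.755).

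Uninjured knees of the injured mice were also set against naive cartilage. At day 7 the contralateral knees differed from naive in 0% of genes by edgeR, and DESeq2 called 8. Of the 21262 genes tested by edgeR, 3220 had an unadjusted p under 0.05, in a fit that holds the outlying library. The ligands lay between -0.14 for Bmp2 and 0.27 for Bmp6. The value of Bmp6 rested on the outlying contralateral replicate 1: without it Bmp6 stood at -0.02, and the 9 ligands ran from -0.46 for Gdf6 to 0.22 for Bmp4, none of them called. Between contralateral knees of day 7 and day 1, 3 genes were called higher (0.0141%) and 1 lower (0.0047%), none of them a ligand.

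Whether the effect of injury differed between the days was tested directly, as the injured minus contralateral difference of day 7 less that of day 1. For Gdf5 this was 2.60 in log2 (SE 0.645, edgeR adjusted p = 0.0295) and it was called, beside 3.53% of genes called higher and 0.245% lower. The call was lost, with estimates between 2.32 and 2.64, when any 1 of 7 libraries was left out: day 1 contralateral replicates 2 and 3, day 1 injured replicates 1 and 2, day 7 contralateral replicate 2 and day 7 injured replicates 1 and 3. For Bmp7 it was -0.96 (SE 0.282, edgeR adjusted p = 0.0674) and for Bmp3 -0.73 (SE 0.231, edgeR adjusted p = 0.0926), not called by edgeR and called by DESeq2 with adjusted p of 0.0224 and 0.0388. Without the outlying contralateral replicate 1 the values were 2.71 for Gdf5 (edgeR adjusted p = 0.0322), which was called, and -0.98 for Bmp7 and -0.81 for Bmp3 (edgeR adjusted p = 0.0661 and 0.0528), which were not.

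The make-up of the ligand pool is given next. Of the summed TPM of the 9 ligands, Gdf5 made up 0.78% ± 0.348 in naive libraries and 10.1% ± 3.27 in day 7 injured libraries, where the lowest library held 6.38% and the highest of the naive libraries 1.19%. Bmp3 went from 22.2% ± 2.39 to 15.5% ± 1.33, and Bmp7 from 4.5% ± 0.82 to 3.12% ± 0.417 (SD, n = 6 and 3). Bmp3 held the largest mean share in naive cartilage, and in day 7 injured libraries its range overlapped those of Bmp4 and Bmp6, at 17.7% ± 7.54 and 16.6% ± 1.49. Of the coding transcripts alone, Bmp4 made up 12.1% ± 3.53 there (SD, n = 3). A share falls when another rises, so these values are descriptions of the mix.

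**Figure D3:**
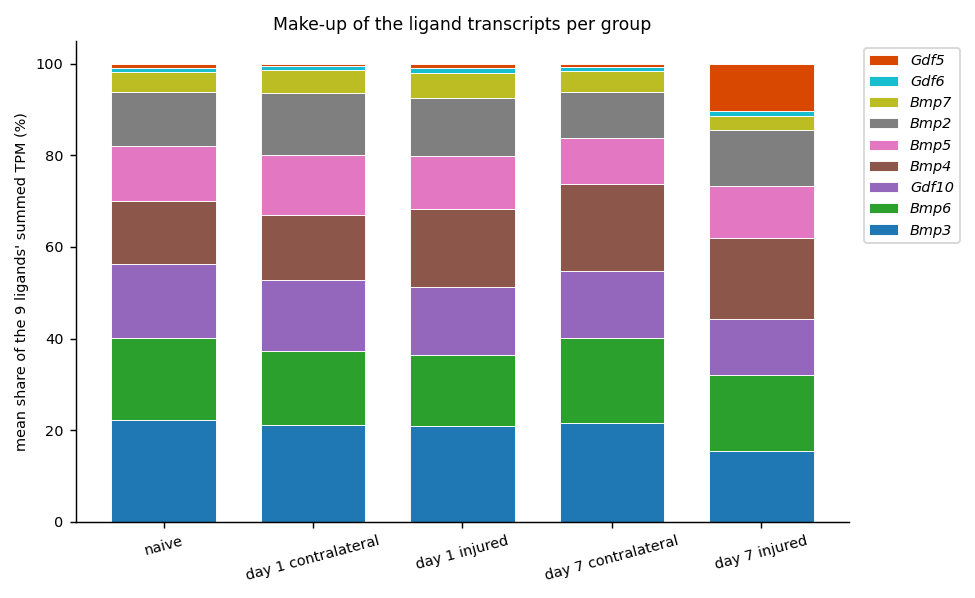
Mean share of each ligand in the summed TPM of the 9 ligands (y axis, in percent) for each group (x axis; n = 6 naive libraries and 3 in each other group). The Gdf5 segment at the top is 0.78% of the bar in naive cartilage and 10.1% in day 7 injured cartilage.

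The other genes of the pathway were taken from lists, and counts are for day 7 injured against naive libraries by edgeR, beside the 10.4% of all genes called higher and the median of all genes of -0.0386 in log2. Among 12 tested ligands of the wider family, 5 were called higher and none lower, with a median of 0.481. Of these 5, Gdf7 and Bmp15 would not have reached the count filter without the day 7 injured libraries in which they were high, and among the 10 other ligands 3 were higher, with a median of 0.309. Gdf7, the third gene of the Gdf5 subfamily, had 2 to 5 counts in naive and 17 to 24 in day 7 injured libraries, or 0.147 ± 0.059 and 1.03 ± 0.227 CPM. Bmp15, an ovarian ligand, had 1 to 12 and 7 to 32 counts, or 0.194 ± 0.123 and 0.955 ± 0.505 CPM. The naive means of both lay near the level of 3 counts, so no fold change is given for them. Inhba, which encodes the subunit of activin A, a ligand that signals through SMAD2 and SMAD3, rose by 1.55, Gdf11 by 0.67 and Inhbb by 0.61. Without day 7 injured replicate 3, Inhba, Gdf11 and Inhbb were not called. Mstn and Bmp8a, at 0.27 and -0.33, were not called.

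Receptors were higher where they changed. Of the 7 type I and type II receptors, 3 were called higher and none lower: Acvr1 by 1.31 (SE 0.114, adjusted p = 7.29e-07), Bmpr1b, a preferred type I receptor of GDF5, by 1.19 (SE 0.266, adjusted p = 0.0035) and Bmpr1a by 1.02 (SE 0.115, adjusted p = 8.49e-06). The type II receptor Bmpr2 differed by 0.53 and the endothelial type I receptor Acvrl1 by 0.38, neither of them called. Against the contralateral knees, 5 of the 7 were called higher, beside 9.33% of genes called higher and 3.23% lower. Those 5 include Bmpr2, at 112 ± 30.0 CPM in the contralateral libraries (SD, n = 3). The receptors summed to 202.7 CPM in contralateral replicate 1, which stood apart, and to 247.2 and 262.8 CPM in the other replicates. No fit of this comparison without replicate 1 is given for the receptors. Of 5 co-receptors, 4 were higher, namely Neo1 by 1.29, Rgma by 0.68, Rgmb by 0.67 and Eng by 0.63, and Hjv was at -0.63 and not called. The calls of Rgma, Rgmb and Eng lay close to the fold limit, and each was lost when 1 naive library was left out, replicate 6, 5 and 1 in turn, with values of 0.58 each. Eng was also not called with the length offset, at 0.55, and Eng and Rgmb were not called without day 7 injured replicate 3.

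Inside the cell, 2 of 8 Smads and Smurfs were higher, both of them receptor-activated Smads of this pathway. Smad1 went from 19.9 ± 1.16 to 41.3 ± 4.04 CPM, a rise of 1.07 (SE 0.0865, adjusted p = 3.40e-07), and Smad5 rose by 0.71. Smad9, of the same group, was not called, with means of 3.61 ± 0.472 CPM in naive and 3.10 ± 0.296 CPM in day 7 injured libraries. Smad4, the shared partner, and Smurf2, a ubiquitin ligase, were at 0.49 and 0.55, with adjusted p of 3.85e-05 and 1.40e-05 but under 1.5-fold. Of 10 target genes, 2 were higher, Id3 by 0.64 and Msx1 by 0.70, with Runx2 at 0.00 and Id2 at 0.15. Neither was called higher in the fit on all 18 libraries, and against the contralateral knees no target gene was called (edgeR). Both results come from fits that hold day 7 contralateral replicate 1, which stood apart. Id3 spread widely in that contralateral group, at 53.8 ± 28.2 CPM (SD, n = 3). The target genes summed to 196.1 CPM in replicate 1 and to 166 and 164 CPM in the other replicates. No value of this comparison without replicate 1 is given for these genes.

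The summed CPM of the antagonists and modulators ran from 333 to 440 in naive and from 1385 to 1757 in day 7 injured libraries. Of 15 tested, 6 were higher and 1 lower. Fstl1, a follistatin-like glycoprotein, rose by 2.71 (SE 0.205, adjusted p = 1.75e-07), from 174 ± 41.5 to 1126 ± 145 CPM. Nbl1 rose by 2.10, Bmper by 1.66, chordin (Chrd) by 1.46, Fstl3 by 1.26 and Twsg1, which binds chordin and BMPs, by 1.23. Sost, an osteocyte product best known as a Wnt inhibitor, fell by 0.95 in log2 (adjusted p = 0.00488). Chrdl1 and Grem1, at 0.34 and -0.47, were not called.

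Of 6 processing proteases, 3 were higher. Bmp1, which despite its name is a metalloprotease that cleaves chordin and procollagens, rose by 1.58 (SE 0.114, adjusted p = 1.12e-07), its relative Tll1 by 1.08 and the proprotein convertase Pcsk5 by 1.28, while Furin and Pcsk6 were at 0.50 and 0.03 and not called. The call of Pcsk5 was lost without day 7 injured replicate 1 or 3 (adjusted p = 0.0568 and 0.0933). Of 7 joint interzone genes, 4 were higher: Osr2 by 2.56 (SE 0.280, adjusted p = 6.30e-06), Wnt9a by 2.22, Osr1 by 1.60 and Barx1 by 1.45. Erg was at 0.54, under the fold limit, and Wnt4 at 0.01. The median of this list was 1.45, the highest of the 8 pathway lists. The lists were drawn up with earlier results of these data known, so their counts are descriptions.

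**Figure D4:**
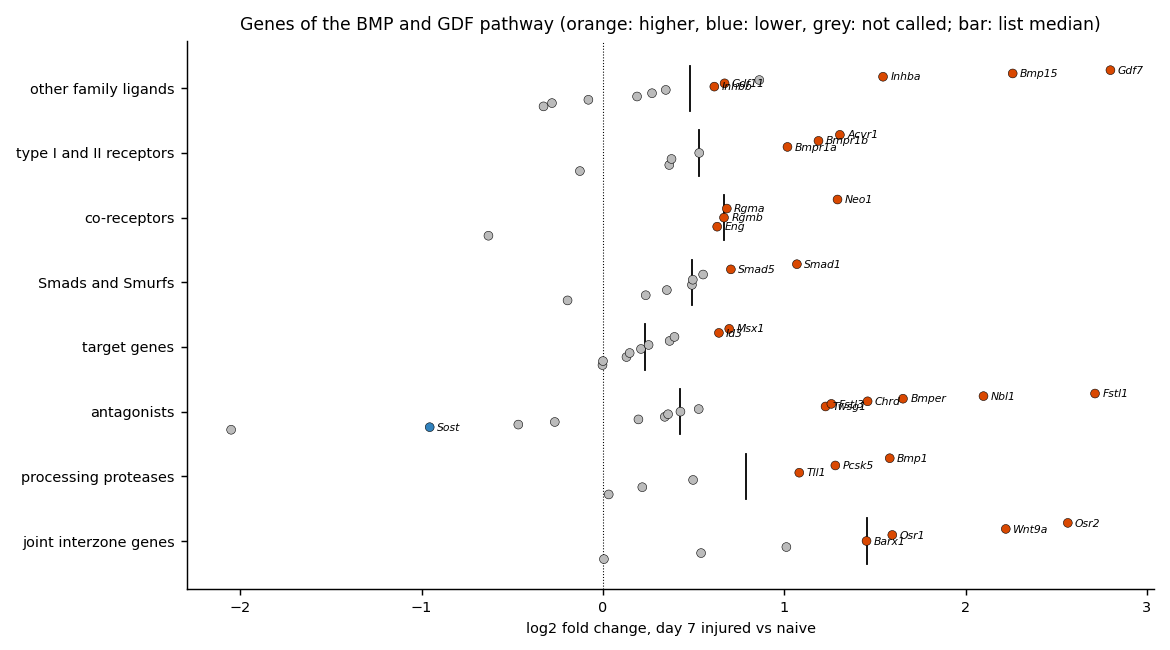
Log2 fold change between day 7 injured and naive libraries (x axis) for the tested genes of 8 pathway lists (y axis; vertical offsets only separate points). Orange points were called higher, blue lower and grey not called, and the upright bar is the list median; 29 points are higher, of which Gdf7 and Bmp15 rest on few naive counts, and Sost is the 1 gene lower.

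Markers of other cells were also higher in the libraries with high Gdf5. The counts are against naive libraries, where 10.4% of all genes were called higher and 6.11% lower. All 6 activated fibroblast markers were higher at day 7 after injury, with a median of 3.97, and their summed level ran from 24540 to 28470 CPM against 1492 to 2998 CPM in naive libraries. Col3a1, the highest of them in CPM, which are not scaled for length, went from 1823 ± 615 to 22640 ± 1425 CPM. All 4 tendon and ligament markers were higher, with a summed level of 684 to 836 CPM against 120 to 376 CPM, with Thbs4 the highest in CPM. Of 9 synovial fibroblast markers 4 were higher, with Pdgfra the highest in CPM at 249 ± 41.7 against 101 ± 13.3 CPM. None of the defining markers of these lists was at 0 in all libraries, in naive cartilage or elsewhere. The part of these cells in the Gdf5 difference was not tested.

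Chondrocyte markers were also higher in part, 4 of 12, beside the same 10.4% of all genes called higher and 6.11% lower. Their summed levels were 7886 to 9825 CPM at day 7 after injury and 4385 to 8086 CPM in naive libraries. Of 7 adipocyte markers, 4 were lower, with summed levels of 166 to 255 against 228 to 806 CPM, with Cfd the highest in CPM. Of 7 erythroid markers, 4 were lower, with summed levels of 16660 to 27480 against 30770 to 41250 CPM. Of 9 neutrophil and marrow myeloid markers 2 were lower, S100a8 at -0.67 and S100a9 at -0.63 in log2, and the summed levels were 7966 to 10880 against 10210 to 15030 CPM. Ngp, the highest of them in CPM over all libraries, was not called. No macrophage or skeletal muscle marker of 9 each was called, and their summed levels overlapped between the groups, with Lyz2 and Myh4 the highest in CPM. Endothelial markers had 3 of 7 higher (highest in CPM Vwf), osteoclast markers 1 of 8 higher (highest in CPM Mmp9) and hypertrophic chondrocyte markers 1 of 4 higher (highest in CPM Col10a1). These named genes were not among the higher ones. Vwf had a mean of 255 CPM in naive and 195 CPM in day 7 injured libraries, Mmp9 763 and 762, and Col10a1 346 and 337. B cell markers had 1 of 6 lower (highest in CPM Cd79b), and osteoblast and osteocyte markers 1 of 8 higher and 2 lower (highest in CPM Ibsp). A single call in such a short list does not show a shift of the list.

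**Figure D5:**
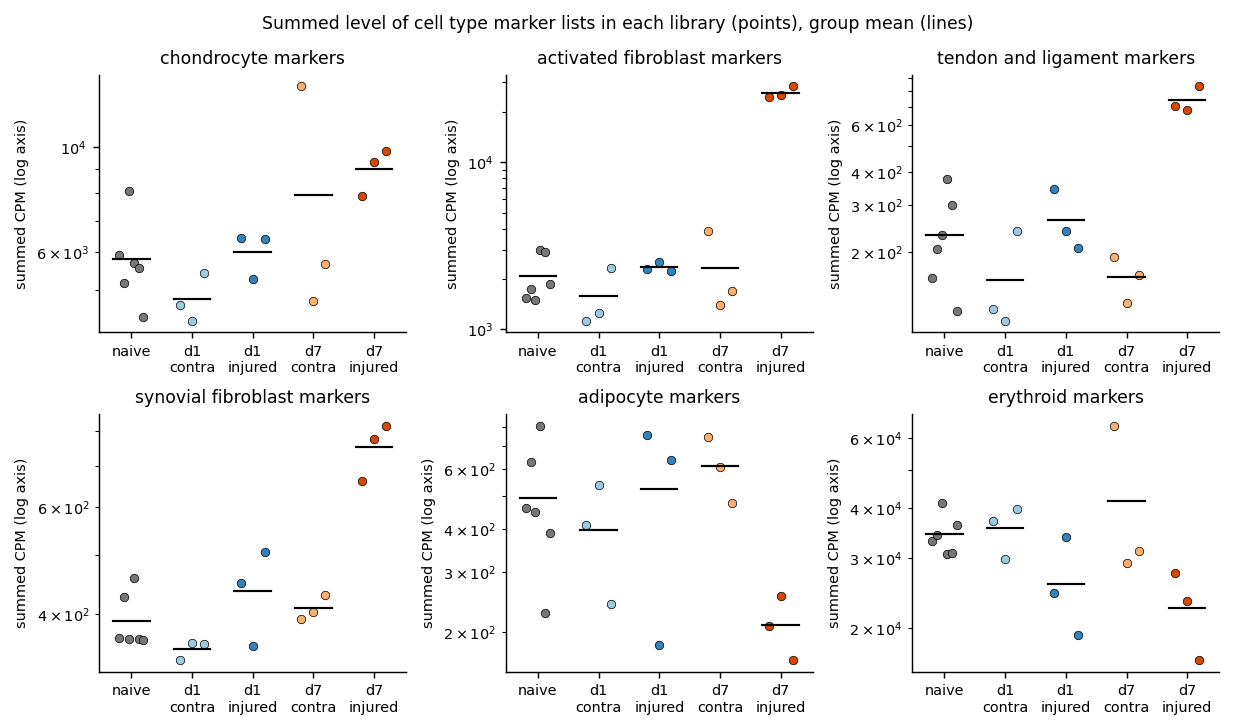
Summed CPM (y axis, log scale) of 6 cell type marker lists in each of the 18 libraries by group (x axis); points are libraries and lines are group means. Activated fibroblast markers at day 7 after injury run from 24540 to 28470 CPM, above all other libraries, as do tendon and ligament markers, from 684 to 836 CPM.

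The genes whose pattern was most like that of each ligand over the 18 libraries were named by Pearson correlation of log2 CPM, as a description over libraries that share groups and depth. For Gdf5 they were Mmp2, a gelatinase, at 0.959, Fam180a at 0.958 and Adamts16, a secreted metalloprotease, at 0.956, with rank correlations of 0.759, 0.692 and 0.827. For Bmp6 they were Pdpr, Cyc1 and Kazald1, at 0.913 to 0.903, for Bmp2 Gpr39, Pid1 and Aldh1a2, at 0.882 to 0.827, and for Bmp3 Fign, Cfap54 and Cdh15, at 0.852 to 0.806. For Bmp7 they were A930001M01Rik, Sctr and Gm19299, at 0.851 to 0.841, for Gdf10 Sox8, Crispld1 and Meltf, at 0.82 to 0.801, for Gdf6 Ddx28, Pemt and Btbd9, at 0.81 to 0.793, and for Bmp4 Wscd1, Nos2 and Eda, at 0.807 to 0.776. For Bmp5 they were Zfp658, Igkv6-15 and Gm17066, at 0.906 to 0.891, with rank correlations of 0.688, 0.333 and 0.507. Bmp5 stood at 5.995 CPM in the outlying day 7 contralateral replicate 1 and ran from 9.75 to 13.3 CPM elsewhere. The part of that library in the Bmp5 correlations was not tested.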

How the data were processed

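Total RNA was sequenced in 18 libraries of mouse knee cartilage. Per the study's methods and notes, the authors trimmed reads with Trimmomatic and quantified transcripts with kallisto; the deposited files hold estimated counts, which need not be whole, TPM and an effective length for each of 137436 transcripts, for each library separately. The labels name GRCh38 as build, but the transcripts are mouse. The study left out 1 library with a low mapping rate without naming it, and whether it is among these 18 is not given in the sources used here. Files held no fold changes or p-values.

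Here 135107 transcripts (98.3%) were matched to 49184 genes of GENCODE M21 (GRCm38), and estimated counts were summed per gene and rounded; unmatched transcripts, 0.667% to 3.9% of counts, stayed out. TPM were summed per gene as deposited. CPM used TMM factors over the 18 libraries. No libraries were identical. edgeR 4.0.16 (R 4.3.3) was run with filterByExpr, TMM, glmQLFit and glmQLFTest, with 1 mean per group, Benjamini-Hochberg adjustment over all genes tested and calls at an adjusted p of at most 0.05 and at least 1.5-fold. A fit of 15 libraries (21129 genes) served where day 7 contralateral samples were not compared, and a fit of 18 (21262 genes) elsewhere. SE is the log2 fold change over the root of F. Intervals are at 95%. A floor of 3 counts per library is 0.0700 to 0.234 CPM. The fit was tested on simulated data. Alternatives were DESeq2 1.42.0, DESeq2 size factors, limma-voom (limma 3.58.1), no filter, a length offset, an adjusted p limit of 0.01, no fold limit, all 18 libraries, leaving out each library and, added after seeing the data, TPM of coding transcripts alone. Words of 31 bases were compared over both strands of the M21 transcripts present in the files.

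Named genes were the 9 ligands; of each pathway list up to 4 called genes with the lowest adjusted p and up to 2 uncalled with the highest CPM; the gene of each marker list with the highest CPM; and the 3 genes with the highest Pearson correlation to each ligand (prior count of 2). Inhbb, Acvr2a, Bmper, Fstl3, Sost, S100a8 and S100a9 were named after their values were seen. The ligands and lists were chosen with earlier results of these data known. Hjv was matched as Hfe2, and Ahsp was not matched.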

Additional observations from a re-analysis of the deposited data

Results flagged for a closer look

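Injury effects that differed between day 7 and day 1, tested as the difference of the injured minus contralateral differences by edgeR, were found for Gdf5 at 2.60 in log2 (adjusted p = 0.0295). Among the other named genes of the pathway they were found for Fstl1 at 2.41 (adjusted p = 0.000358), Twsg1 at 0.95 (adjusted p = 0.000891), Acvr1 at 1.06 (adjusted p = 0.00461), Osr2 at 2.54 (adjusted p = 0.00575) and Neo1 at 1.00 (0.997 before rounding, adjusted p = 0.00649). They were also found for Bmp1 at 0.84 (adjusted p = 0.0169), Bmpr1a at 0.88 (adjusted p = 0.0173), Smad1 at 0.70 (adjusted p = 0.0216), Nbl1 at 1.41 (adjusted p = 0.0268) and Tll1 at 1.79 (adjusted p = 0.0407). Of the other pathway genes tested, Acvr2a at 0.65 (adjusted p = 0.0184) and Bmper at 1.67 (adjusted p = 0.0343) were also called higher, and Sost was called lower at -1.85 (adjusted p = 0.0386). The Sost means were 11.5 CPM in injured and 33.6 ± 20.6 CPM in contralateral libraries at day 7, and 23.8 and 19.2 CPM at day 1. With each of the 18 libraries left out in turn, Fstl1, Twsg1, Acvr1, Osr2 and Neo1 were called in every fit. The call was lost in 3 fits each for Bmpr1a and Acvr2a, 4 for Bmp1, 6 for Smad1, 7 each for Gdf5 and Nbl1, 8 for Bmper, 10 for Sost and 13 for Tll1. Over all 23 alternatives at the same limits, which add other tools, scalings, filters and the length offset, Neo1 lost its call in 1. Bmpr1a and Acvr2a lost theirs in 4 each, Sost in 12 and Tll1 in 15, and the other genes lost no further call. Without day 7 contralateral replicate 1, which stood apart, Sost stood at -1.23 (adjusted p = 0.0775) and Tll1 at 1.76 (adjusted p = 0.0591), neither of them called, and the other 12 genes were called.

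A sample far from the others was found in 1 of the 40 naive groups of 6 looked at, where chance alone marks about 1 in 20: the highest naive library for the summed CPM of the other family ligands stood at 112.9, with a gap of 0.794 of the group's range against a limit of 0.625. Inhba had the highest CPM of that list.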

How the results depend on the processing

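Gdf5 was called higher in day 7 injured cartilage against naive, contralateral and day 1 injured cartilage under every alternative run. Of 430 recomputed counts of called ligands, 415 kept their value. Most of the 18 counts behind them were 0 in the main fit, several in comparisons where edgeR called no gene. Keeping 0 there is little sign of stability. Between day 7 injured and naive libraries, 2 ligands were called higher without day 7 injured replicate 3 (range 1 to 2), Bmp4 being added, beside 8.45% of all genes, and 1 lower, Bmp3, with no fold limit, beside 11% of all genes. Between the injured groups, 2 ligands were called lower with no fold limit (8.2% of all genes) and 0 at an adjusted p limit of 0.01 (1.81% of all genes), with 1 to 2 when each library was left out. For the change of the injury effect between the days, the ligands called higher numbered 0 at that limit (1.6% of all genes) and 0 to 1 with each library left out; those called lower numbered 2 by DESeq2 (0.753% of all genes) and 0 to 1 with each library left out, Bmp3 being called without day 1 contralateral replicate 1 (0.138% of all genes). The causes were not tested. With coding transcripts alone, 6 of the 9 ligands kept their place in the order of naive TPM.

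Signs of named genes turned only where the value was not called. Against naive, Runx2 turned to -0.01006 with DESeq2 size factors, -0.01118 with no filter, -0.01075 by DESeq2 and -0.01741 with all 18 libraries, and Wnt4 to -0.004162, -0.005553, -0.002826 and -0.01219. With each library left out, Runx2 ran from -0.04021 to 0.07491, Wnt4 from -0.05096 to 0.08559, Pcsk6 from -0.1104 to 0.1103 and Bmp6 from -0.001947 to 0.137. Against day 1 injured cartilage, Gdf6 ran from -0.08875 to 0.6016, Bmp2 from -0.2468 to 0.02575, Bmp5 from -0.1506 to 0.04332 and Bmp6 from -0.09818 to 0.2639. Against contralateral knees, Bmp5 ran from -0.03432 to 0.463 and Bmp6 from -0.3888 to 0.1007. For the change between the days, Gdf6 ran from -0.2145 to 0.596, Bmp2 from -0.2723 to 0.3222, Bmp4 from -0.1036 to 0.3754 and Bmp5 from -0.1491 to 0.3433. With the length offset Bmp4 was at -0.05619 against contralateral knees and at -0.6534 for the change between the days.

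Of 30 pathway genes called between day 7 injured and naive libraries, 20 stayed called with other tools, scalings, filters or libraries, and Bmp15 did so in all fits but that without naive replicate 4, where it did not reach the count filter. Gdf7, among the 20, and Bmp15 reached that filter only through the day 7 injured libraries, so their kept calls are no sign of stability. Calls of Gdf11, Inhba, Inhbb, Eng, Rgmb, Msx1 and Pcsk5 were lost without day 7 injured replicate 3, which left 2 other ligands and 2 co-receptors called higher. Those 2 ligands were Gdf7 and Bmp15, so no ligand of that list outside these filter cases stayed called. Inhbb, Id3 and Msx1 were not called with all 18 libraries. With other libraries left out, Inhbb lost its call in 5 fits, Msx1 in 3, and Rgma, Rgmb, Eng, Id3 and Pcsk5 in 1 each. Over all genes, DESeq2 called 160 genes lower for the change between the days against 52 by edgeR, and 69 higher and 12 lower between the contralateral groups against 3 and 1. With each library left out, genes called lower ran from 279 to 1058 against contralateral knees (edgeR 686, limma-voom 452), from 797 to 1425 against naive and from 849 to 1363 against day 1 injured cartilage, and those called for the change between the days from 393 to 892 higher and 9 to 91 lower. Counts were few for Gdf5 outside day 7 injury, at 3 to 22. No paired analysis was possible because the labels do not say which pools share mice, although the study's own model used them. The tests between knees, and those against naive libraries, ignore this.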
